A study of Saccharomyces cerevisiae with 10 samples.

Results

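The genes described here encode subunits of budding yeast RNA polymerases I and III and general factors that work with them. They are 39 named genes out of the 5824 features in the expression table. They were chosen by name from the list of known subunits and factors and not by their measured levels. Earlier results of these data were known when they were chosen. RNA-seq was performed on 5 strains of *Saccharomyces cerevisiae*, with 2 independent cultures of each. The strains overexpressing *LSM5*, *TIF35*, *UTP6* or *PRP22* are named LSM5-OE and so on after their gene, and WT is the control strain. All strains are BY4741, a haploid laboratory strain of mating type a. Each overexpression (OE) strain carries an extra copy of 1 essential gene, with the gene's own promoter and terminator, on a low-copy centromeric plasmid of the MoBY-ORF1 library that bears URA3. In the study's lifespan assays the WT control carried the empty vector of that library, and its RNA-seq methods do not restate the vector. *LSM5* encodes a subunit of the Lsm rings that act in mRNA decay and splicing, *TIF35* a subunit of translation initiation factor eIF3, *UTP6* a component of the processome that matures small-subunit rRNA, and *PRP22* a splicing helicase. The 4 OE strains were chosen in the study for their long replicative lifespan, and the question put to the RNA was which transcripts differ from WT. All cultures were grown in glucose medium lacking uracil and collected while growing. The strains were kept as frozen stocks of individual transformant colonies, and the 2 cultures of a strain may therefore come from 1 transformant.

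RNA polymerase I (Pol I) makes the long precursor of the large ribosomal RNAs, and RNA polymerase III (Pol III) makes 5S rRNA, tRNAs and other small RNAs. The enzymes share several subunits with each other and some with RNA polymerase II (Pol II), which makes mRNA. Pol I is brought to the rDNA promoter by Rrn3, core factor and upstream activating factor, whereas Pol III is brought to its genes by TFIIIC and TFIIIB and is held back by Maf1 when growth slows. The genes for the subunits are transcribed by Pol II and belong to the ribosome biogenesis regulon, many of whose promoters carry the PAC box (named after polymerases A and C, the older names of Pol I and III) and the rRNA processing element RRPE.

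PAC and RRPE letters were looked for in the promoters, because both elements are known from genes of this kind. The window ran from 250 bases before to 50 bases after the first base of the start codon, on both strands, in RefSeq assembly R64. The 6-letter PAC core GATGAG was in 23 of the 39 genes (59.0%), against 20.4% of the 6001 protein-coding genes with such a window. The longer GCGATGAG, which contains the core, was in 6 of 39 (15.4%), against 3.93% of all windows. The RRPE core AAAAATTT was in 18 of 39 (46.2%), against 14.1% of all windows. Both cores were in 14 of 39 (35.9%), against 5.63% of all windows. A match is a description of the letters only, and the windows include the start codon, which overlaps GATGAG where a G precedes ATGAG. With the bases before the start codon alone, 22 genes held the PAC core.

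Matches were unevenly spread over the roles. The RRPE core was found upstream of 18 of the 22 polymerase subunits and of 0 of the 17 factors. The PAC core was found in 16 of the 22 subunits, and in 7 of the 17 factors, 6 of which belong to the Pol I initiation factors. The following stretches show the arrangement in subunits whose levels are described below, with PAC cores (GATGAG or its complement CTCATC, with GC beside it where the longer form is present) and RRPE cores (AAAAATTT or its complement) in capitals. Each is written 5′ to 3′ on the strand of its gene, with 12 bases on either side of the matches shown.
RPA190: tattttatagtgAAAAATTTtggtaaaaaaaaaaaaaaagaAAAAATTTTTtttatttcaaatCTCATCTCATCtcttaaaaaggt
RPA135: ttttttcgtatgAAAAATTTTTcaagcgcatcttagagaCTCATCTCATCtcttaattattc
RPA49: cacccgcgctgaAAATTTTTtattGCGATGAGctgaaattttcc
RPC40: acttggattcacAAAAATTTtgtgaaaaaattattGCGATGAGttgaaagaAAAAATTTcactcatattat
RPO31: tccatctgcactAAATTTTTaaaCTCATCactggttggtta
RET1: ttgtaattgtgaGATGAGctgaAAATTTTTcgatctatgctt
RPC25: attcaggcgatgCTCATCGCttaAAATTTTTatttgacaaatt
These lie at chrXV:960752-960837 (plus strand) for *RPA190*, chrXVI:581283-581344 (minus) for *RPA135*, chrXIV:182721-182764 (minus) for *RPA49*, chrXVI:746885-746955 (minus) for *RPC40*, chrXV:544226-544266 (minus) for *RPO31*, chrXV:733557-733598 (minus) for *RET1* and chrXI:176645-176687 (minus) for *RPC25*. In *RPA190* and *RPA135* the PAC core is repeated in tandem on the complementary strand, and both genes have an AAAAATTTTT run that reads the same on either strand.

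The 6 Pol I initiation factors with a match had PAC cores alone, *RRN11* with 3 in a row and *RRN9* only at its start codon.
RRN11: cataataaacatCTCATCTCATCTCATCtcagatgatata
RRN3: aaaagatattttGATGAGcatctctcgttt
RRN6: ttaagaaaccgaGATGAGctttcatattag
RRN10: gctacgtagactGATGAGgaattctttttt
They lie at chrXIII:191929-191968 (minus strand), chrXI:208061-208090 (plus), chrII:201811-201840 (minus) and chrII:171251-171280 (plus), in that order. *RRN7*, *RRN5*, 5 of the 6 TFIIIC genes, both TFIIIB genes and *MAF1* had neither core in the window. The subunit genes *RPA12* and *RPC17* had neither core as well.

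**Figure D1:**
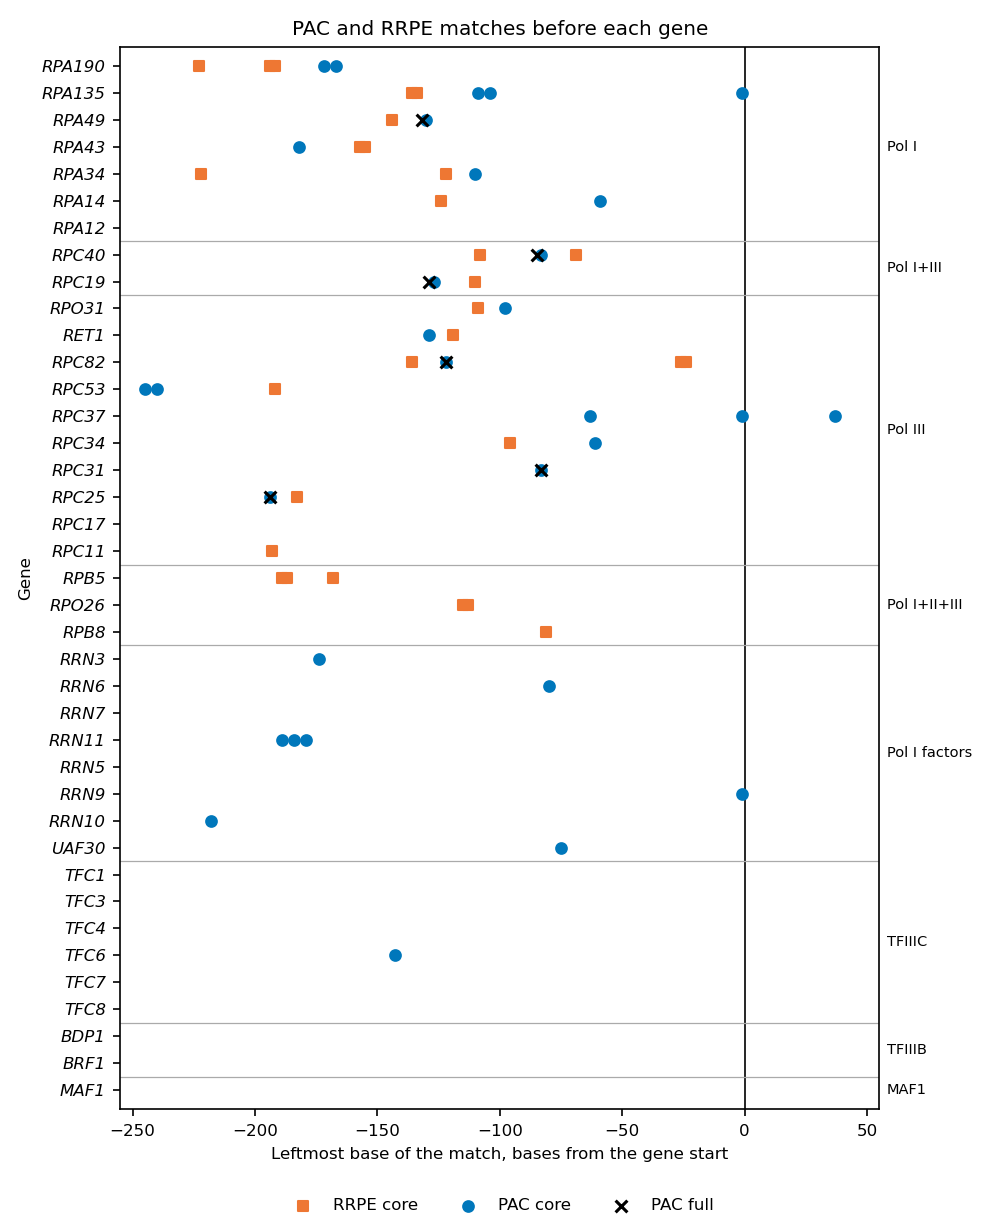
Positions of PAC and RRPE letters in the promoter window of each gene, with the distance from the start codon in bases on the x axis and the 39 genes by role on the y axis. Blue points mark the PAC core, black crosses its longer form and orange squares the RRPE core; the squares stop at the subunit genes, 18 of which hold one.

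Libraries were checked before the genes were compared. Each targeted gene was higher in its own strain than in WT: *LSM5* was at 865 and 1456 FPKM in LSM5-OE, against 268 and 312 FPKM in WT, *TIF35* at 2121 and 2183 FPKM in TIF35-OE, against 834 and 829 FPKM in WT, *UTP6* at 204 and 212 FPKM in UTP6-OE, against 80.5 and 85.9 FPKM in WT, and *PRP22* at 43.3 and 44.5 FPKM in PRP22-OE, against 20.9 and 20.0 FPKM in WT. *LSM5* was also above both WT cultures in every culture of the other OE strains (381 to 676 FPKM). The a-specific receptor *STE2*, which binds alpha-factor, was at 420 to 611 FPKM over the 10 cultures. The alpha-specific receptor *STE3* was at 12.9 to 17.3 FPKM, as the mating type of BY4741 requires. The plasmid marker *URA3* was at 625 to 937 FPKM in all cultures, WT included. The deposited values are FPKM (fragments scaled by gene length and library total) and give no counts, but their low values fall on steps from which 13453400 to 17366200 fragments per library were estimated. By the same estimate fragments were 282 to 284 bases long in 3 libraries (the first culture of TIF35-OE, the first of UTP6-OE and the second of PRP22-OE), against 309 to 314 bases in the other 7. This bears on short genes, whose FPKM rest on few positions, and *RPC11* (333 bases), *RPA12* (378 bases), *RPA14* (414 bases), *RPC19* (429 bases), *RRN10* (438 bases) and *RPB8* (441 bases) are the shortest here. *RPC11*, *RPA12*, *RPA14* and *RPB8* were lower in the library of shorter fragments than in the other library of the same strain in all 3 of these strains. *RPC19* was lower there in 2 of the 3 strains and *RRN10* in 1. Of the 39 genes, 13 were lower in all 3, among them the long genes *RPO31* (4383 bases) and *RPA135* (3612 bases). The share over all features was not counted, so the 13 are not read as an effect of gene length.

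All 39 genes were measured in all 10 cultures, from 10.8 FPKM (*RRN7* in TIF35-OE) to 1125 FPKM (*RPO26* in LSM5-OE), and all passed the filter of a mean of at least 1 FPKM. FPKM is scaled by length, so levels can be set side by side between genes, less safely for the shortest ones, whose FPKM rest on few positions. In WT, the median level was 226 FPKM for the 7 subunits specific to Pol I, 113 FPKM for the 10 specific to Pol III and 558 FPKM for the 3 listed subunits shared by Pol I, II and III. The subunits shared by Pol I and III, *RPC40* and *RPC19*, were at 647 ± 10.3 and 260.0 ± 18.003 FPKM (SD, n = 2). The Pol I initiation factors had a median of 31.0 FPKM, from 17.9 ± 0.509 FPKM for *RRN7* to 61.1 ± 0.983 FPKM for *RRN9* (SD, n = 2), and the 6 TFIIIC genes a median of 38.9 FPKM. The largest subunit of each enzyme was its least abundant transcript, with *RPA190* at 89.1 ± 1.34 FPKM among the Pol I subunits and *RPO31* at 52.6 ± 0.262 FPKM among those of Pol III (SD, n = 2). By the depth estimate a gene rested on 51.5 fragments (*RPC11*) to 9444 fragments (*RPA135*) in a library, which sets a counting error of 13.9% at the low end. FPKM are shares of a library, so they do not tell a smaller amount per cell from a larger amount of all other RNA.

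Each OE strain was set against WT with limma, on log2(FPKM + 0.5) of the 5768 features that averaged 1 FPKM or more, with Benjamini-Hochberg adjustment over those features, and a gene was called at an adjusted p of at most 0.05. Fold changes below are on this log2 scale, which understates changes of low values slightly. All 4 comparisons use the same 2 WT cultures. In LSM5-OE, 4 of the 39 genes were called lower, or 10.3%, where 2.95% of all tested features were, and 0 were called higher, where 4.70% were (1 gene had an unadjusted p under 0.05 in that direction, and 0 were called with voom weights in limma). Voom is made for counts and was given FPKM here, so its weights, here and below, are only approximate. In TIF35-OE, 15 were called lower (38.5%, against 20.7% of all features) and 1 higher (2.56%, against 9.62%). In UTP6-OE, 8 were called lower (20.5%, against 19.1%) and 4 higher (10.3%, against 9.95%), so that shares lay near those of all features. In PRP22-OE, 5 were called lower (12.8%, against 12.2%) and 0 higher (against 7.09%; 3 had an unadjusted p under 0.05 and 0 were called with voom weights). The median log2 fold change of the 39 genes was -0.08 in LSM5-OE, -0.13 in TIF35-OE, -0.02 in UTP6-OE and -0.06 in PRP22-OE, beside -0.01, -0.10, -0.07 and -0.05 for all features in the same order.

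The counts depended on single libraries and on scaling. Without the first or without the second WT culture the calls numbered 0 and 0 in LSM5-OE, 8 and 8 in TIF35-OE, 2 and 1 in UTP6-OE, and 0 and 0 in PRP22-OE, with the remaining WT culture assumed to vary like the other strains. LSM5-OE also fell to 2 calls without the first LSM5-OE culture or either TIF35-OE culture, TIF35-OE to 8 without its first culture, UTP6-OE to 3 without its first and 4 without its second culture, and PRP22-OE to 1 without either of its own cultures. After rescaling the libraries by the median of ratios the calls split as 0 higher and 6 lower in LSM5-OE, and as 2 higher and 12 lower in TIF35-OE. They split as 6 higher and 5 lower in UTP6-OE, and as 1 higher and 3 lower in PRP22-OE. The median of the 39 genes turned to 0.05 in UTP6-OE and was -0.06 in LSM5-OE, -0.04 for TIF35-OE and -0.01 for PRP22-OE, where the medians of all features lay between -0.01 and 0.00. The rescaling ended the calls of *RPC19*, *RPC34* and *RPC11* in TIF35-OE, of *RPA12*, *RPC82* and *BDP1* in UTP6-OE, and of *RPC82* and *RPC37* in PRP22-OE. It left *RPA190* (-0.18) and *RPC37* (-0.16) in TIF35-OE and *RPO31* (-0.13) in UTP6-OE called at smaller values than those given below. The same rescaling split the calls of all features as 358 higher and 220 lower in LSM5-OE (271 and 170 before), 976 and 733 in TIF35-OE (555 and 1193 before), 1023 and 858 in UTP6-OE (574 and 1104 before), and 685 and 581 in PRP22-OE (409 and 705 before). Without the 3 libraries of shorter fragments, a fit with 2 residual degrees of freedom, 1 call was left, that of *RPC40* in UTP6-OE (log2 fold change 0.32, adjusted p = 0.04365 by limma with Benjamini-Hochberg adjustment). The calls below are those of the fit of all 10 libraries.

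**Figure D2:**
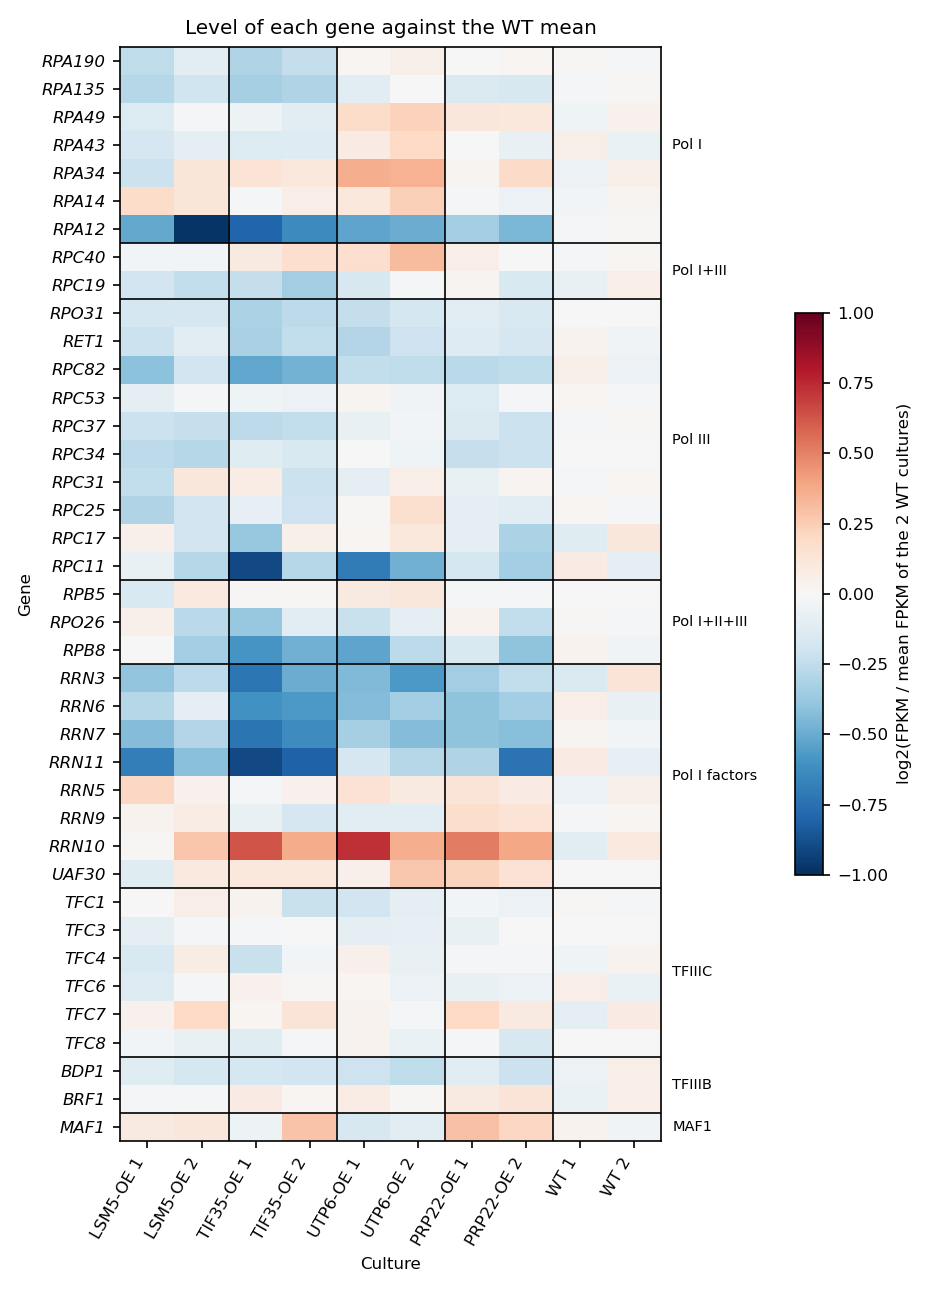
Levels of the 39 genes (rows, by role) in the 10 cultures (columns), as log2 of FPKM over the mean of the 2 WT cultures, blue below and red above it. *RPA12* and the core factor genes *RRN6*, *RRN7* and *RRN11* are blue in all 8 OE cultures, while the TFIIIC rows stay pale.

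The cultures can also be read without a model. In all 8 OE cultures, 10 of the 39 genes (25.6%) lay below both WT cultures, where 15.0% of all tested features did, and 0 lay above both, where 9.52% did. With the 5 OE cultures of longer fragments alone, 12 genes (30.8%) lay below, against 16.3% of all features. The 10 genes were *RPA12* of Pol I, *RPO31*, *RET1*, *RPC82* and *RPC37* of Pol III, *RRN3*, *RRN6*, *RRN7* and *RRN11* of the Pol I initiation machinery, and *BDP1* of TFIIIB. Since the WT cultures are shared, these 8 cultures do not give separate comparisons. By the limma calls, *RPA12*, *RPC82*, *RPC37*, *RPC34*, *RRN6* and *RRN7* were lower in 3 strains each, 5 genes were called in 2 strains, 9 in 1 and 19 in none. None of the 39 genes was called in all 4 strains. The share of all features called in several strains was not counted, and the comparisons share their WT cultures. These counts are therefore not read as a trait of the 39 genes.

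The largest fall of the 39 genes was in a factor that starts Pol I transcription, and 3 more of these factors fell with it in TIF35-OE. Core factor is made of Rrn6, Rrn7 and Rrn11 and recruits Pol I to the rDNA promoter together with Rrn3, which binds the polymerase itself. *RRN7* (chrX:393967-395511, coding region in RefSeq R64 as for the genes that follow) was at 13.2 and 14.6 FPKM in LSM5-OE, 10.8 and 11.6 FPKM in TIF35-OE, 14.2 and 13.2 FPKM in UTP6-OE, 13.5 and 13.3 FPKM in PRP22-OE, and 18.2 and 17.5 FPKM in WT. Every OE culture was below WT and TIF35-OE was lowest. *RRN7* fell by 0.66 in TIF35-OE (SE 0.0904, adjusted p = 0.00215), by 0.40 in PRP22-OE (adjusted p = 0.02) and by 0.37 in UTP6-OE (adjusted p = 0.0186), all by limma with Benjamini-Hochberg adjustment, whereas its change of -0.35 in LSM5-OE did not pass (adjusted p = 0.057). *RRN6* (chrII:199064-201748) was at 18.9 and 21.65 FPKM in LSM5-OE, 15.2 and 15.5 FPKM in TIF35-OE, 17.0 and 18.2 FPKM in UTP6-OE, 17.5 and 18.2 FPKM in PRP22-OE, and 24.2 and 21.95 FPKM in WT. The higher LSM5-OE culture nearly reached the lower WT culture, and the other strains lay well apart from WT. *RRN6* fell by 0.57 in TIF35-OE (SE 0.0907, adjusted p = 0.00392), by 0.38 in UTP6-OE (adjusted p = 0.0178) and by 0.36 in PRP22-OE (adjusted p = 0.0295, limma), and its value in LSM5-OE was -0.18 (adjusted p = 0.29).

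*RRN11* (chrXIII:190244-191767) was at 13.4 and 16.1 FPKM in LSM5-OE, 11.5 and 12.3 FPKM in TIF35-OE, 19.2 and 17.7 FPKM in UTP6-OE, 17.5 and 12.9 FPKM in PRP22-OE, and 22.8 and 20.3 FPKM in WT. The TIF35-OE cultures were lowest and close to each other, while the PRP22-OE cultures were far apart. It fell by 0.83 in TIF35-OE (SE 0.154, adjusted p = 0.00734 by limma), the largest fall among the 39 genes, and had -0.54 in LSM5-OE (adjusted p = 0.0824), -0.50 in PRP22-OE (adjusted p = 0.0583) and -0.22 in UTP6-OE (adjusted p = 0.322). *RRN3* (chrXI:208247-210130) was at 29.97 and 32.8 FPKM in LSM5-OE, 23.9 and 27.9 FPKM in TIF35-OE, 29.0 and 26.5 FPKM in UTP6-OE, 31.1 and 33.2 FPKM in PRP22-OE, and 35.6 and 43.2 FPKM in WT. The WT cultures differed more from each other than the cultures of any OE strain, and all OE cultures lay below them. *RRN3* fell by 0.60 in TIF35-OE (SE 0.115, adjusted p = 0.0086) and by 0.50 in UTP6-OE (adjusted p = 0.0157, limma), and had -0.32 in LSM5-OE (adjusted p = 0.149) and -0.29 in PRP22-OE (adjusted p = 0.128).

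Single libraries moved some of these calls. In TIF35-OE, *RRN6* and *RRN7* stayed called whichever culture was left out (*RRN7* at -0.70 to -0.61), *RRN11* missed the threshold without the first WT culture (-0.75, adjusted p = 0.0537 by limma) and *RRN3* without the second WT or the first TIF35-OE culture (highest adjusted p = 0.0578). In UTP6-OE the calls of *RRN3* and *RRN6* were each ended by leaving out 1 WT culture or 1 UTP6-OE culture, and that of *RRN7* by either WT culture or the second UTP6-OE culture. In PRP22-OE the calls of *RRN6* and *RRN7* were ended by either WT or either PRP22-OE culture. Directions were unchanged in each of these fits. Without the 3 libraries of shorter fragments, the values in TIF35-OE were -0.49 for *RRN3*, -0.56 for *RRN6*, -0.61 for *RRN7* and -0.78 for *RRN11*.

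Upstream activating factor, the complex of Rrn5, Rrn9, Rrn10, Uaf30 and histones that marks the rDNA promoter, did not follow core factor. *RRN10* (chrII:171481-171918) was at 51.2 and 61.5 FPKM in LSM5-OE, 78.8 and 65.8 FPKM in TIF35-OE, 84.5 and 65.5 FPKM in UTP6-OE, 72.4 and 66.5 FPKM in PRP22-OE, and 47.4 and 54.4 FPKM in WT. All OE cultures but the first of LSM5-OE lay above both WT cultures. *RRN10* rose by 0.50 in TIF35-OE (SE 0.151, adjusted p = 0.0408) and by 0.55 in UTP6-OE (SE 0.151, adjusted p = 0.0303, limma), with 0.45 in PRP22-OE (adjusted p = 0.0785) and 0.14 in LSM5-OE (adjusted p = 0.632). *RRN10* is 438 bases long, and its highest values stood in the first TIF35-OE and first UTP6-OE libraries, which had shorter fragments. Without the 3 libraries of shorter fragments the values were 0.37 in TIF35-OE (adjusted p = 0.223) and 0.36 in UTP6-OE (adjusted p = 0.22, limma), and each call ended without either WT culture or the first culture of the strain itself, that in TIF35-OE also without its second culture or either PRP22-OE culture. With fragment length as a covariate of the limma fit both calls ended, at 0.42 in TIF35-OE (adjusted p = 0.0872) and 0.46 in UTP6-OE (adjusted p = 0.0749). *RRN5*, *RRN9* and *UAF30* were called in no strain, at -0.12 to 0.18, and the 4 genes together had median log2 fold changes of 0.09 in LSM5-OE, 0.06 in TIF35-OE, 0.14 in UTP6-OE and 0.17 in PRP22-OE. The 3 core factor genes had medians of -0.35, -0.66, -0.37 and -0.40 in the same order of strains.

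**Figure D3:**
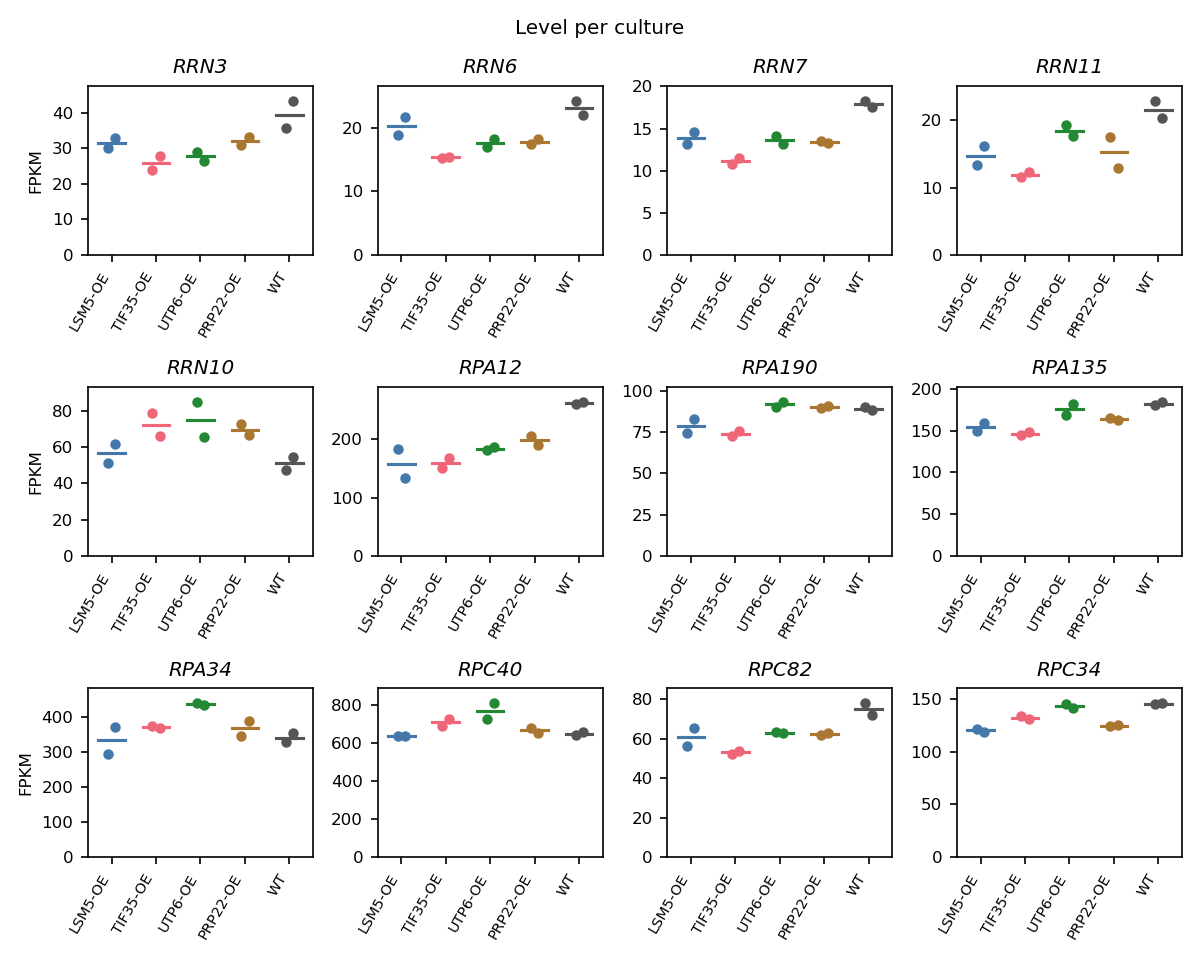
FPKM of 12 of the genes in each culture (points) with the mean of the 2 cultures of a strain (line), on axes that start at 0. *RRN3*, *RRN6*, *RRN7*, *RRN11*, *RPA12* and *RPC82* are highest in WT, *RRN10* is lowest there, and *RPA34* and *RPC40* have their highest means in UTP6-OE.

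Among the 7 subunits specific to Pol I, *RPA12* changed most. It encodes a small subunit that takes part in RNA cleavage and termination. *RPA12* (chrX:555195-555572) was at 183 and 133 FPKM in LSM5-OE, 151 and 168 FPKM in TIF35-OE, 182 and 186 FPKM in UTP6-OE, 206 and 191 FPKM in PRP22-OE, and 260.1 and 263 FPKM in WT. All OE cultures were below WT by more than the WT cultures differed, and the LSM5-OE cultures were the least alike. It fell by 0.75 in LSM5-OE (SE 0.134, adjusted p = 0.0174), by 0.71 in TIF35-OE (adjusted p = 0.00774) and by 0.51 in UTP6-OE (adjusted p = 0.0263, limma), and had -0.40 in PRP22-OE (adjusted p = 0.0773). The LSM5-OE call was ended by leaving out either WT culture (adjusted p = 0.105 without the first), the TIF35-OE call by the first TIF35-OE culture, and the UTP6-OE call by either WT or either UTP6-OE culture. At 378 bases the gene is little longer than a fragment, and its values without the 3 libraries of shorter fragments were -0.63 in TIF35-OE and -0.49 in UTP6-OE. The comparison with LSM5-OE, whose libraries had fragments of 313 and 309 bases, holds no such library.

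Both of the largest subunits of Pol I were called lower in TIF35-OE, and 1 of them in LSM5-OE. *RPA190* (chrXV:960987-965981), which holds part of the active centre, was at 74.7 and 82.6 FPKM in LSM5-OE, 72.4 and 75.6 FPKM in TIF35-OE, 90.4 and 93.0 FPKM in UTP6-OE, 89.4 and 90.6 FPKM in PRP22-OE, and 90.1 and 88.2 FPKM in WT. It fell by 0.27 in TIF35-OE (SE 0.0583, adjusted p = 0.0136, limma), a call ended by either WT culture or the first TIF35-OE culture, and had -0.18 in LSM5-OE (adjusted p = 0.112), 0.04 in UTP6-OE (adjusted p = 0.63) and 0.01 in PRP22-OE (adjusted p = 0.901). *RPA135* (chrXVI:577585-581196), the second-largest subunit, was at 149.8 and 159 FPKM in LSM5-OE, 145 and 148 FPKM in TIF35-OE, 169 and 182 FPKM in UTP6-OE, 165 and 163 FPKM in PRP22-OE, and 181 and 184 FPKM in WT. Only UTP6-OE overlapped WT. It fell by 0.32 in TIF35-OE (SE 0.0529, adjusted p = 0.00491), which held with any culture left out, and by 0.24 in LSM5-OE (adjusted p = 0.0362, limma), which was ended by 7 of the 10 cultures, both WT cultures among them.

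The Rpa49 and Rpa34 proteins form a heterodimer that acts in initiation and elongation, and their genes were called higher in UTP6-OE. *RPA34* (chrX:140437-141138) was at 293 and 370.5 FPKM in LSM5-OE, 373 and 366 FPKM in TIF35-OE, 437 and 434 FPKM in UTP6-OE, 346 and 387 FPKM in PRP22-OE, and 326 and 354 FPKM in WT. UTP6-OE was above every other culture, with a rise of 0.36 against WT (SE 0.108, adjusted p = 0.042 by limma). *RPA49* averaged 261 ± 5.71 FPKM in UTP6-OE and 226 ± 9.87 FPKM in WT (SD, n = 2), a rise of 0.21 (SE 0.0575, adjusted p = 0.0314, limma). Both calls were lost without either WT or either UTP6-OE culture, and that of *RPA34* also without either TIF35-OE culture. The stalk genes *RPA43* and *RPA14* were called in no strain, with values of 0.14 and 0.17 in UTP6-OE and of -0.13 to 0.15 elsewhere. *RPA43* (chrXV:959202-960182, minus strand) and *RPA190* are divergent neighbours.

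The subunits shared by Pol I and III, Rpc40 and Rpc19, form the assembly platform of both enzymes, and their genes moved differently. *RPC40* (chrXVI:745828-746835) was at 633 and 635 FPKM in LSM5-OE, 689 and 726 FPKM in TIF35-OE, 726 and 806 FPKM in UTP6-OE, 679 and 649.7 FPKM in PRP22-OE, and 639 and 654 FPKM in WT. The second UTP6-OE culture was highest, the first was level with the second TIF35-OE culture, and LSM5-OE lay just under WT. It rose by 0.24 in UTP6-OE (SE 0.0627, adjusted p = 0.0241, limma), lost without either WT culture or the second UTP6-OE culture, and had 0.13 in TIF35-OE (adjusted p = 0.155). *RPC19* averaged 212 ± 11.03 FPKM in TIF35-OE and 260.0 ± 18.003 FPKM in WT (SD, n = 2) and fell by 0.29 (SE 0.0844, adjusted p = 0.0358, limma), a call ended by either WT or either TIF35-OE culture.

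All 10 subunits specific to Pol III had negative log2 fold changes in LSM5-OE, TIF35-OE and PRP22-OE, and 8 of 10 did in UTP6-OE, with medians of -0.17, -0.21, -0.16 and -0.03 in that order of strains. Of all tested features, 53.1%, 64.7%, 60.3% and 60.9% were below 0 in the same order. After rescaling by the median of ratios, the genes below 0 numbered 10, 8, 9 and 4 of 10 in that order, with medians of -0.16, -0.12, -0.11 and 0.03. The limma calls were 2 genes lower in LSM5-OE (where 2.95% of all features were), 6 in TIF35-OE (20.7% of all features), 3 in UTP6-OE (19.1%) and 3 in PRP22-OE (12.2%). After the rescaling they were 3, 4, 2 and 1, and 0 of the 10 genes in the fit of the deposited values were higher in any strain at an adjusted or unadjusted p under 0.05, with or without voom weights. *RPC82* (chrXVI:917077-919041), whose product helps open the promoter within a trimer with Rpc34 and Rpc31, was at 56.4 and 65.4 FPKM in LSM5-OE, 52.3 and 54.0 FPKM in TIF35-OE, 63.2 and 62.9 FPKM in UTP6-OE, 62.1 and 62.8 FPKM in PRP22-OE, and 78.0 and 71.8 FPKM in WT. All OE cultures lay below WT. It fell by 0.49 in TIF35-OE (SE 0.0754, adjusted p = 0.00338), a call that held with any culture left out, by 0.25 in UTP6-OE (adjusted p = 0.0442) and by 0.26 in PRP22-OE (adjusted p = 0.0486, limma), which were each lost in 8 of 10 such fits, those without a WT culture among them. In LSM5-OE it had -0.30 (adjusted p = 0.0548, limma).

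*RPC34* (chrXIV:634344-635297), whose product contacts TFIIIB, was at 121 and 119 FPKM in LSM5-OE, 134 and 131 FPKM in TIF35-OE, 145 and 141 FPKM in UTP6-OE, 124 and 125 FPKM in PRP22-OE, and 145 and 146 FPKM in WT. Cultures of a strain lay close together, LSM5-OE and PRP22-OE were lowest, and UTP6-OE overlapped WT. *RPC34* fell by 0.27 in LSM5-OE (SE 0.042, adjusted p = 0.0104), by 0.22 in PRP22-OE (SE 0.042, adjusted p = 0.00967) and by 0.14 in TIF35-OE (adjusted p = 0.0431, limma). The LSM5-OE call was ended by leaving out either WT culture (highest adjusted p = 0.0837), the PRP22-OE call by either WT or the first PRP22-OE culture, and the TIF35-OE call by 8 of the 10 cultures, including either WT culture. After rescaling by the median of ratios the value in TIF35-OE was -0.05 (adjusted p = 0.484, limma). *RPC31*, the remaining member of the trimer, was at -0.07 to -0.01 in the 4 strains and was not called.

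*RPO31* (chrXV:539763-544145), which encodes the largest subunit, was at 46.6 and 46.8 FPKM in LSM5-OE, 42.3 and 43.9 FPKM in TIF35-OE, 44.6 and 46.6 FPKM in UTP6-OE, 48.6 and 47.4 FPKM in PRP22-OE, and 52.4 and 52.8 FPKM in WT. No OE culture reached WT. It fell by 0.28 in TIF35-OE (SE 0.0489, adjusted p = 0.00547), a call kept with each culture left out in turn, and by 0.20 in UTP6-OE (adjusted p = 0.018, limma), a call lost without either WT culture or the first UTP6-OE culture, and had -0.17 in LSM5-OE (adjusted p = 0.083) and -0.13 in PRP22-OE (adjusted p = 0.106). *RET1*, the second-largest subunit, averaged 67.9 ± 2.43 FPKM in TIF35-OE, 69.6 ± 3.01 FPKM in UTP6-OE and 82.8 ± 3.06 FPKM in WT (SD, n = 2). It fell by 0.28 in TIF35-OE and by 0.25 in UTP6-OE (adjusted p = 0.0119 and 0.0182, limma), and both calls were lost without the first WT culture or the first culture of the strain itself, that in UTP6-OE also without the second WT culture. Of the heterodimer of Rpc37 and Rpc53, which acts in termination and reinitiation, *RPC37* fell by 0.22 in LSM5-OE, by 0.25 in TIF35-OE and, in PRP22-OE, by 0.18 (adjusted p = 0.028, 0.00646 and 0.0311, limma), and *RPC53* was not called, its farthest value from 0 being -0.08 in PRP22-OE. Without the second WT culture *RPC37* missed the threshold in each of the 3 strains (adjusted p = 0.0505 in TIF35-OE), and in LSM5-OE and PRP22-OE also without the first and without 4 other cultures.

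*RPC11*, which encodes the subunit for RNA cleavage and termination, is the shortest gene of the 39. It averaged 130.0 ± 38.6 FPKM in TIF35-OE, with the first culture far below the second, against 192 ± 15.7 FPKM in WT (SD, n = 2). It fell by 0.59 in TIF35-OE (SE 0.188, adjusted p = 0.0489, limma), a call ended by 9 of the 10 cultures when left out, and without the 3 libraries of shorter fragments its value was -0.28 (adjusted p = 0.238). In UTP6-OE it had -0.58 (adjusted p = 0.0515). The stalk genes *RPC25* and *RPC17* were called in no strain, with *RPC25* at -0.24 in LSM5-OE and 0.09 in UTP6-OE.

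Of the genes for subunits common to all 3 polymerases, the 3 among the 39 gave 1 call. *RPB8* averaged 386 ± 21.9 FPKM in TIF35-OE and 558 ± 17.97 FPKM in WT (SD, n = 2), and fell by 0.53 (SE 0.138, adjusted p = 0.0248, limma), with -0.48 when the 3 libraries of shorter fragments were left out (adjusted p = 0.162). Either WT or either TIF35-OE culture ended that call. *RPB8* is 441 bases long. *RPB5* was at -0.03 to 0.10 and *RPO26*, the most abundant of the 39 transcripts in WT, at -0.24 to -0.10, and neither was called. The 2 other subunits common to all 3 enzymes, encoded by *RPB10* and *RPC10*, were outside the 39 genes and were called in no strain. The WT cultures were far apart at *RPB10*, with 1350 and 474 FPKM.

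The DNA-binding factor of Pol III gave no call. TFIIIC recognises the internal promoters of tRNA genes, and 0 of its 6 genes were called in any strain, with log2 fold changes between -0.14 and 0.15. None of these 24 values had an unadjusted p under 0.05 in limma, with or without voom weights. Of all tested features, 2.95% to 20.7% were called lower in a strain and 4.70% to 9.95% higher. With only 6 genes, 0 calls is near those shares and is not read as a trait of TFIIIC. Of TFIIIB, which places Pol III at the start site, *BDP1* averaged 60.4 ± 1.31 FPKM in UTP6-OE and 70.8 ± 3.97 FPKM in WT (SD, n = 2) and fell by 0.23 (SE 0.0588, adjusted p = 0.0247, limma), lost without the second WT culture or either UTP6-OE culture. It had -0.15 in LSM5-OE, while TIF35-OE gave -0.18 and PRP22-OE -0.16 (adjusted p = 0.193, 0.0539 and 0.101, limma). *BRF1* was at -0.02 to 0.11 and was not called. *MAF1* (chrIV:456836-458103), the repressor of Pol III, was at 76.0 and 77.6 FPKM in LSM5-OE, 69.0 and 87.4 FPKM in TIF35-OE, 64.0 and 66.7 FPKM in UTP6-OE, 87.6 and 82.7 FPKM in PRP22-OE, and 73.4 and 69.8 FPKM in WT. PRP22-OE was above WT and UTP6-OE below it, but neither passed, at 0.25 (adjusted p = 0.129) and -0.13 (adjusted p = 0.359, limma).

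**Figure D4:**
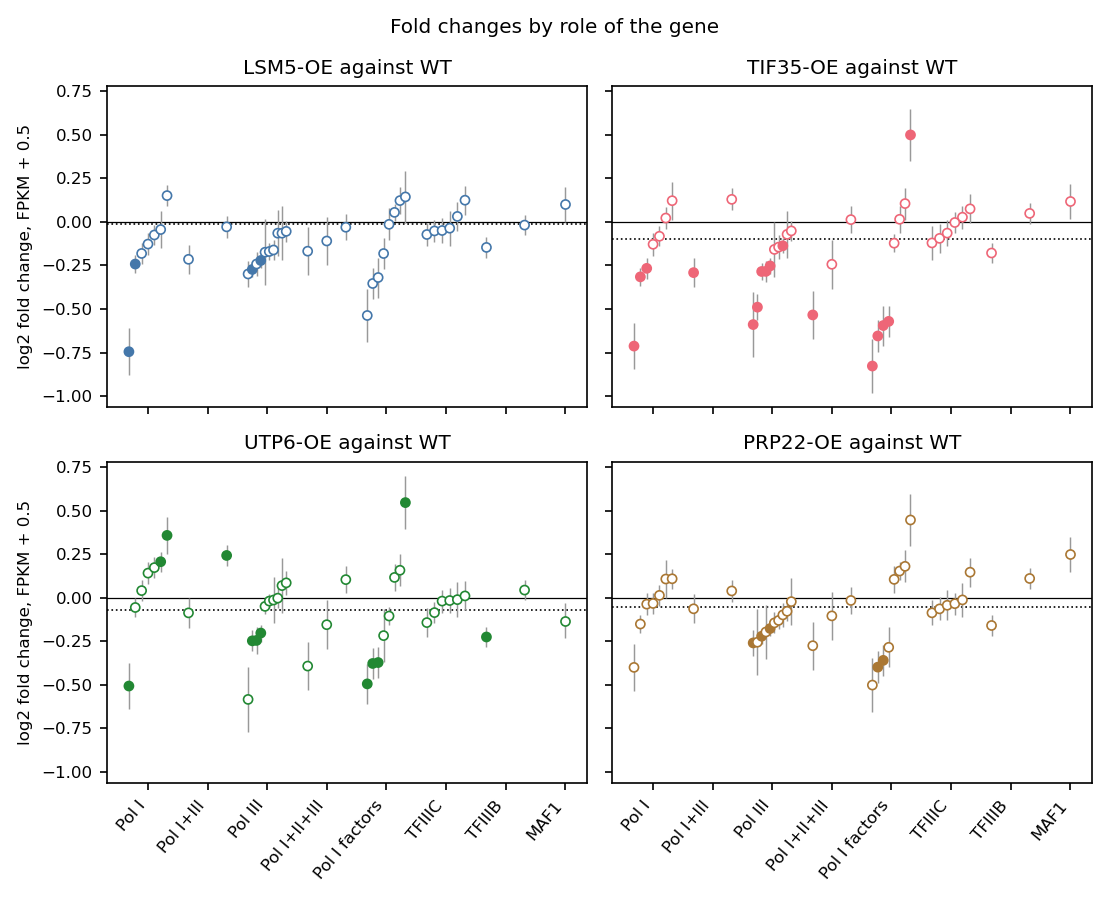
Log2 fold change of each gene against WT by role, in 1 panel per OE strain, with the standard error of limma as a line. Filled points have an adjusted p of at most 0.05, and the dotted line is the median of all 5768 features; in TIF35-OE 15 filled points lie below 0 and 1 above, and no TFIIIC point is filled in any panel.

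The OE strains were also set against each other, with p-values adjusted over all features within each of the 6 pairs. UTP6-OE and LSM5-OE differed at 9 of the 39 genes (23.1%), where 22.8% of all features differed in either direction, and all 9 were higher in UTP6-OE. They were *RPA190*, *RPA135*, *RPA49*, *RPA43* and *RPA34* of Pol I, *RPC40*, and *RPC37*, *RPC34* and *RPC25* of Pol III, by 0.17 (*RPC37*) to 0.40 (*RPA34*). UTP6-OE and TIF35-OE differed at 4 genes (10.3%, against 6.61% of all features), *RPA190*, *RPA135*, *RPA49* and *RPC37*, all higher in UTP6-OE. For these pairs the share of all features by direction was not counted. UTP6-OE and PRP22-OE differed at *RPC34* and *RRN9* (5.13%, against 10.1%), PRP22-OE and TIF35-OE at *RPA190* and *RRN9* (5.13%, against 11.3%), TIF35-OE and LSM5-OE at *RRN6* (2.56%, against 11.4%), and PRP22-OE and LSM5-OE at 0 genes (against 4.82%; 4 genes had an unadjusted p under 0.05 in limma and 0 were called with voom weights). The sum of 18 calls dropped to 10 without the first WT culture, 11 without the second, 9 and 3 without the first and second UTP6-OE culture, and 11 without either PRP22-OE culture. Among the 18, the difference of *RPC34* between UTP6-OE and LSM5-OE (0.25, SE 0.042, adjusted p = 0.00522 by limma) was the only one called with any single culture left out.

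Genes with the promoter letters shown above could be followed across strains. Those of the 39 with both cores (14 genes) had a median log2 fold change of -0.17 in LSM5-OE, -0.14 in TIF35-OE, 0.02 in UTP6-OE and -0.07 in PRP22-OE, and the 25 others of -0.06, -0.12, -0.09 and -0.06 in the same order. Over all tested genes with a promoter window, the 335 with both cores had medians of -0.11, -0.14, 0.03 and -0.05 in that order, and the 5376 without both of -0.01, -0.09, -0.08 and -0.05. Genes that share these letters overlap in function, so they are not independent of the list, and no test was made on them.

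Other genes of transcription by these enzymes were taken as lists. Of the 7 subunits specific to Pol II, 2 were called higher (*RPB3* and *RPB4*) and 2 lower (*RPO21* and *RPB2*, the largest subunits) in TIF35-OE, *RPB4* higher and *RPO21* lower in UTP6-OE, *RPB4* higher in PRP22-OE, and 0 in LSM5-OE. Of all tested features, 9.62% were called higher and 20.7% lower in TIF35-OE. With voom weights in limma, 0 of these 7 genes were called there, where 3 in each direction had an unadjusted p under 0.05. After rescaling by the median of ratios, 2 were called higher and 0 lower in UTP6-OE. The log2 fold changes of *RPO21* and *RPB2* in TIF35-OE were -0.37 and -0.28, close in size to those of *RPA190*, *RPA135*, *RPO31* and *RET1* there. TATA-binding protein, encoded by *SPT15* and used by all 3 polymerases, fell by 0.36 in TIF35-OE and by 0.34 in UTP6-OE, and *PZF1*, which encodes the 5S rRNA factor TFIIIA, by 0.44 and 0.56 in those strains (adjusted p = 0.00956, 0.0109, 0.015 and 0.00526, limma). *HMO1*, which encodes an rDNA-binding protein, rose by 0.18 in UTP6-OE and by 0.22 in PRP22-OE. Of 5 growth regulators, *SFP1*, *SCH9* and *TOD6* were called lower in TIF35-OE and *DOT6* higher in PRP22-OE, where Dot6 and Tod6 are repressors that bind the PAC box, and *STB3*, whose product binds RRPE, was called in no strain. After rescaling by the median of ratios 1 of the 5 was called lower in TIF35-OE. With voom weights 0 were, and 1 had an unadjusted p under 0.05 in limma.

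Transcripts made by Pol I and III were listed for the rDNA and a few small RNAs. The 37S precursor feature *RDN37-1* was at 68.0 and 68.5 FPKM in LSM5-OE, 93.3 and 109 FPKM in TIF35-OE, 83.2 and 93.9 FPKM in UTP6-OE, 55.1 and 49.1 FPKM in PRP22-OE, and 44.4 and 48.1 FPKM in WT, and was called higher by 0.56, 1.12 and 0.93 in LSM5-OE, TIF35-OE and UTP6-OE (adjusted p = 0.0153, 0.000273 and 0.00039, limma), with 0.17 in PRP22-OE (adjusted p = 0.27). The external spacer feature *ETS1-1* was called higher in all 4 OE strains, by 0.91 in LSM5-OE, 1.20 in TIF35-OE, 1.05 in UTP6-OE and 0.48 in PRP22-OE (highest adjusted p = 0.00364, limma). Of the mature rRNA features, *RDN25-1* was called higher by 0.68 in TIF35-OE (adjusted p = 0.0438, limma) and *RDN18-1* in no strain, with WT cultures at 299 and 687 FPKM. The 2 listed rDNA copies carry identical values, so reads cannot be assigned to 1 copy. *SCR1*, a Pol III product, was at 33.8 and 32.8 FPKM in PRP22-OE and 46.8 and 89.0 FPKM in WT and was not called in any strain. How much rRNA and small RNA the library preparation retained was not tested, so these levels are not rates of transcription.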

How the data were processed

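RNA was isolated from 2 cultures of WT and of each OE strain, and libraries were made with Illumina TruSeq kits. The authors deposited FPKM values per gene in a pair of tables, which were equal in all 58240 cells compared, and read counts were not used here. The submitters' processing notes name STAR, RSEM, edgeR and limma, whereas the study's methods name HISAT2, featureCounts, edgeR and DESeq2, and which program wrote the FPKM is not given in the sources used here. All 10 columns were matched to samples by name. Whether the cultures came from separate transformants is not given, so p-values measure the spread between these cultures.

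FPKM were transformed as log2(FPKM + 0.5), features with a mean under 1 FPKM were left out, and 1 linear model over all 10 libraries was fitted with limma 3.58.1 (lmFit, then eBayes with a trend) in R 4.3.3, with 5 residual degrees of freedom. Tests were two-sided, with Benjamini-Hochberg adjustment over the 5768 features within each comparison and a threshold of 0.05. With 2 cultures a strain, an exact permutation test cannot reach that threshold. Fragments per library and fragment length were estimated from the steps of FPKM values under 4 in genes of 450 to 2500 bases, where 75.0% to 92.9% of the values lay within 0.15 of a whole fragment, so depth is an estimate and gives counting error only. Motifs were searched in RefSeq R64 with Python 3.11.15 (pandas 2.3.3, numpy 2.4.6), and figures were drawn with matplotlib 3.10.9. The depth estimate and the limma fit were tested on simulated data.

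Per-culture values are given for called genes with both cultures beyond both WT cultures (per strain at most the 3 largest rises and the 3 largest falls), for the targeted genes, and for *RPA190*, *RPO31*, *MAF1* and *RRN3*, and the transcripts of Pol I and III were chosen after their values were seen. The 39 genes and lists were chosen with earlier results of these data known. Alternatives were other pseudocounts (0.1 and 1), the filter left off or raised to 5 FPKM, scaling by the median of ratios, voom weights, culture number as a block, genes under 400 bases left out, a covariate for fragment length, only the strains compared, and each culture left out. The voom weights were fitted to FPKM with their library sums, since counts were not available. Leaving out the 3 libraries of shorter fragments, and combining median of ratios with the covariate, were added after seeing the data.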

Additional observations from a re-analysis of the deposited data

Results flagged for a closer look

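Differences between OE strains that passed the limma test (Benjamini-Hochberg adjustment over all features in each pair) are listed here, since both strains were also compared with the same WT cultures, and each value is the log2 difference of the first strain over the other. UTP6-OE was above LSM5-OE by 0.22 at *RPA190*, 0.19 at *RPA135*, 0.28 at *RPA49*, 0.27 at *RPA43* and 0.40 at *RPA34* among the Pol I subunits. Of the Pol I and III and the Pol III subunits it was above LSM5-OE by 0.27 at *RPC40*, 0.17 at *RPC37*, 0.25 at *RPC34* and 0.33 at *RPC25*. UTP6-OE was above TIF35-OE by 0.31 at *RPA190*, 0.26 at *RPA135*, 0.29 at *RPA49* and 0.20 at *RPC37*. Against PRP22-OE, UTP6-OE had 0.20 at *RPC34* and -0.26 at *RRN9*, which encodes a subunit of upstream activating factor. *RRN6* had -0.39 in TIF35-OE against LSM5-OE. PRP22-OE was above TIF35-OE by 0.28 at *RPA190* and by 0.28 at *RRN9* (0.275 before rounding). With 2 cultures a strain, no strain was large enough to look for cultures apart from the rest of their group.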

How the results depend on the processing

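All calls of the 39 genes (37 against WT and 18 between strains) kept their direction under every alternative that gave a value (genes under 400 bases had none in 1 of them), but many missed the threshold under some. Pseudocounts of 0.1 and 1 left the counts as they were. The counts of calls below are those against WT of LSM5-OE first, then TIF35-OE, then UTP6-OE, then PRP22-OE, and last those in the pairs of OE strains, where the fit described gave 4, 16, 12, 5 and 18. With voom weights they were 1, 9, 5, 1 and 3, and with only the strains compared in the model 0, 12, 10, 3 and 10. With fragment length as a covariate the count in UTP6-OE was 7, and with median of ratios and that covariate the count in PRP22-OE was 3. Without the 3 libraries of shorter fragments, which left 2 residual degrees of freedom, they were 0, 0, 1, 0 and 0. Leaving out each culture in turn gave 0 to 5, 8 to 15, 1 to 13, 0 to 6 and 3 to 20, with the lone culture assumed to vary like the other strains, and 5 calls in TIF35-OE (*RPA135*, *RPO31*, *RPC82*, *RRN6* and *RRN7*) held in all 10 of these fits.

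Adding the culture number to the model as a replicate block gave 3, 12, 11, 3 and 16. The numbers do not pair the cultures, since the differences between cultures 1 and 2 correlated across genes at -0.36 to 0.43 between strains, so the block is no paired analysis. The 0.43 was between TIF35-OE and UTP6-OE and the -0.36 between TIF35-OE and PRP22-OE, strains that each have a library of shorter fragments. In features of at least 400 bases these correlations were 0.05 and -0.24. The causes of these correlations and of the changes in the counts of calls were not tested. The estimated counting error of up to 13.9% limits what can be seen in the shortest genes.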
